A study of Mus musculus with 4 samples.

Results

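The NADPH oxidase of phagocytes was examined through 8 of its genes in cultured myoblasts, the muscle precursor cells, of wild type (WT) and Tet2 knockout (Tet2 KO) mice. The genes were chosen by symbol, and all 8 were found among the 24445 genes of the expression table. The 6 phagocyte members were Cybb, Cyba, Ncf1, Ncf4, Rac2 and Hvcn1. The 2 remaining members, Nox4 and Rac1, were counterparts that are not confined to phagocytes. Both groups were C57BL/6 mice. Tet2 KO animals lacked exon 3 of Tet2, an enzyme that oxidises methylated cytosine, in every cell of the body, and per the study's methods mice were male and 8 to 10 weeks old unless stated otherwise. Satellite cells of hindlimb muscle had been sorted for CD34 and integrin alpha 7 and against CD45, CD11b, CD31 and Sca1, then grown for at least 3 days on collagen in a medium labelled T cell medium, until they were MyoD-positive. RNA of 2 libraries per group was sequenced, and each gene was given 1 FPKM value in each group, a level scaled to transcript length and to 1000000 mapped fragments. No library had a value of its own in the table, so no difference below has a standard deviation, a replicate check or a p-value, and each is a description of these 2 pooled values.

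The oxidase moves electrons from NADPH across a membrane onto oxygen and so makes superoxide, which phagocytes use against engulfed microbes. Its membrane core is a heterodimer of gp91phox (Cybb), which carries the electrons, and p22phox (Cyba), which stabilises it. In resting cells the core is silent, and it becomes active when cytosolic subunits, among them p47phox (Ncf1) and p40phox (Ncf4), join it together with the GTPase Rac2. The voltage-gated proton channel Hvcn1 releases the acid and charge that the reaction leaves behind. Nox4 is a relative of Cybb that works without the cytosolic subunits in many tissues, and Rac1 is the Rac GTPase found in most cells.

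The phagocyte members were higher in Tet2 KO and the counterparts differed little in absolute level. All 6 phagocyte members had a higher FPKM in Tet2 KO, by 2.12-fold to 4.43-fold without a pseudocount. Of all genes averaging at least 1 FPKM, 48.8% had a higher FPKM in Tet2 KO. On the log2((Tet2 KO FPKM + 1) / (WT FPKM + 1)) scale, called the log2 ratio below, their median was 1.58, while that of the 11692 expressed genes, those averaging at least 1 FPKM over both groups, was -0.0044. With a pseudocount of 1, 5 of the 6 were at least 2-fold higher, against 2.08% of the 11692 expressed genes, and none was at least 2-fold lower, against 1.21%. At a fold of 1.5 all 6 were higher, against 3.72%, and at a fold of 4 none was, against 0.205%. Without a pseudocount all 6 were at least 2-fold higher, against 2.95%, and 4 of them at least 4-fold higher, against 0.992%. Among the 7960 genes with a mean FPKM within the range of these members, 2.19 to 37.6 FPKM, a background chosen after the data were seen, 2.16% were at least 2-fold higher and 1.28% at least 2-fold lower, and the 10th and 90th percentiles were -0.26 and 0.23. Rac1 had a log2 ratio of 0.03 and Nox4 of 0.12, and the median of the phagocyte members lay 1.501 above the mean of these 2. Nox4 was kept in this mean though it averaged under 1 FPKM. Its ratio was small because of the pseudocount, and its fold was 1.91 without one. With no pseudocount the distance was 1.56.

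To show the regulatory DNA beside these levels, the 250 bases before the transcription start were taken for the members with a RefSeq promoter entry, namely Cybb, Cyba, Ncf1 and Nox4. Hvcn1, Ncf4, Rac1 and Rac2 had no entry. The sequences, tabulated for GRCm38.p6, each had 1 exact match in mm9, the build of the expression table, and mm9 positions are given. They are printed 5′ to 3′ on the strand of the gene, with CpG sites, the dinucleotides whose methylation Tet2 acts on, in capitals. Cybb lies at chrX:9046451-9046700 on the minus strand, Cyba at chr8:124956841-124957090 on the minus strand, Ncf1 at chr5:134705496-134705745 on the minus strand and Nox4 at chr7:94394909-94395158 on the plus strand.
Cybb: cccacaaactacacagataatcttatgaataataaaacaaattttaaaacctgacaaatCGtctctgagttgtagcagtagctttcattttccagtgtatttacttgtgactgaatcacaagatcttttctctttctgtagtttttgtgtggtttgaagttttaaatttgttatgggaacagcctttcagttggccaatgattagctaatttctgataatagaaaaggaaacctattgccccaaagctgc
Cyba: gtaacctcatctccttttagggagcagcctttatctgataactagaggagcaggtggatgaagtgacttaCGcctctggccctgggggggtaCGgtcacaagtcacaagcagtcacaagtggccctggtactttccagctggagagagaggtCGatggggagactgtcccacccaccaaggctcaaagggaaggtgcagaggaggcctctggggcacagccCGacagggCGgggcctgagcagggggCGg
Ncf1: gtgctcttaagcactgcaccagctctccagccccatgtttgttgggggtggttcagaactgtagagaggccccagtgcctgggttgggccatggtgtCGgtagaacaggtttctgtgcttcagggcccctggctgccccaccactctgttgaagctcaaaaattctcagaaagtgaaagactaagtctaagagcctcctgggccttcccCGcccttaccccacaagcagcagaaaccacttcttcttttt
Nox4: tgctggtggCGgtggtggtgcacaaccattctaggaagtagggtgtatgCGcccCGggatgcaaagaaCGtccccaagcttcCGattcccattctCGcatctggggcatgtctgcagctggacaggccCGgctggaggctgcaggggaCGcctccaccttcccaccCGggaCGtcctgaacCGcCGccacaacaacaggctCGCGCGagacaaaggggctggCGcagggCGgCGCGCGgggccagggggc

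The windows differed in CpG content. Cybb had 1 CpG site and Ncf1 had 2, and 92.1% and 81.2% of the 32851 promoters tabulated had at least as many. Cyba had 6, which was the median of all promoters. Nox4 had 20, and 17.9% of promoters had as many or more. The GC content was 34% for Cybb, 54.4% for Ncf1, 60% for Cyba and 67.2% for Nox4. Of the motifs searched on both strands, with overlapping matches counted, CCAAT occurred in 1 place in the Cybb window, starting 56 bases before the start site, and in 33.8% of all promoters. GGGCGG occurred in 2 places in Cyba, at 24 and 6 bases before the start site, in 1 place in Ncf1 and in 1 place in Nox4, and in 32.7% of all promoters. CAGCTG, a common form of the E-box, occurred in 1 place in Cyba and 1 in Nox4, and in 13% of all promoters. GAGGAA, part of 1 form of the site of the myeloid factor PU.1, and TATAAA occurred in none of these windows, and in 23.3% and 12.4% of all promoters. Other forms of the PU.1 site were not searched, so its absence cannot be read from this. These matches describe letters and were not tested as binding sites.

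The membrane core was examined first. Cybb, on the X chromosome from 9012380 to 9046450 of mm9 with 13 exons in its longest coding transcript, had 10.4 FPKM in Tet2 KO against 2.38 in WT. This was 4.39-fold higher in Tet2 KO without a pseudocount and 1.76 as a log2 ratio. Only 53 of the 11692 genes had a larger log2 ratio. Cyba, on chromosome 8 from 124948671 to 124956840 with 6 exons, had 54.0 FPKM in Tet2 KO against 21.3 in WT. Its fold was smaller, at 2.54 without a pseudocount and 1.30 as a log2 ratio, but its difference of 32.7 FPKM was the largest of the 8 members. A long annotated gene model, Gm20388, spans all of Cyba on the opposite strand. The core partners thus differed in proportion: Cyba had 8.96 FPKM for each FPKM of Cybb in WT and 5.17 in Tet2 KO. Cyba also pairs with other Nox proteins outside phagocytes, which is background and was not measured here.

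The cytosolic organisers had nearly the same pattern as Cybb. Ncf1, on chromosome 5 from 134695923 to 134705495 with 11 exons, had 11.2 FPKM in Tet2 KO against 2.52 in WT. Its log2 ratio of 1.79 was the largest of the 8 members, and its fold without a pseudocount was 4.43. Gtf2ird2, with 2.81 FPKM in Tet2 KO against 2.83 in WT, overlaps its 3′ part on the opposite strand from 134695923 to 134700225, and the library kit does not keep strand. Ncf4, on chromosome 15 from 78075241 to 78093010 with 10 exons, had 10.9 FPKM in Tet2 KO against 2.70 in WT. Its log2 ratio was 1.68 and its fold 4.01. Relative to Cybb, Ncf1 had 1.07 FPKM per FPKM of Cybb in Tet2 KO and 1.06 in WT, and Ncf4 had 1.04 and 1.14.

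The Rac GTPases separated by type. Rac2, the form of blood cells, lies on chromosome 15 from 78389599 to 78403213 with 7 exons, and had 5.11 FPKM in Tet2 KO against 1.20 in WT. Its fold was 4.26 without a pseudocount and its log2 ratio 1.47. Rac1, on chromosome 5 from 144266349 to 144288899 with 7 exons, had 97.0 FPKM in Tet2 KO against 94.9 in WT, a fold of 1.02. It was the most abundant member in both groups, and 39.8% of all genes had a larger log2 ratio. Of the summed FPKM of both GTPases, Rac2 made up 5.01% in Tet2 KO and 1.25% in WT. Rac1 transcript thus exceeded Rac2 transcript 79.2-fold in WT and 19.0-fold in Tet2 KO. Stretches of chromosomes 8 and 15 matched 941 and 638 bases of the Rac1 transcript at 96.6% and 95.5% identity. Such copies covered 85.8% of its coding part, so reads could have been divided between them and the Rac1 level is uncertain.

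Hvcn1 had the lowest fold of the phagocyte members, next to that of Cyba. The gene, on chromosome 5 from 122656813 to 122692306 in GENCODE with 7 exons, had 2.98 FPKM in Tet2 KO against 1.40 in WT. Its fold was 2.12 without a pseudocount, and its log2 ratio of 0.73 was the lowest of the 6 and under 2-fold at a pseudocount of 1. Its 3′ end overlaps Tctn1 on the opposite strand from 122691296 to 122692306, and the table gives both genes 1 joint locus. Tctn1 had 2.63 FPKM in Tet2 KO against 2.64 in WT. Without strand, reads from the parts that Hvcn1, Ncf1 and Cyba share with these genes cannot be told apart.

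Nox4, on chromosome 7 from 94395159 to 94547218 with 18 exons, was the least abundant member, with 0.2005 FPKM in Tet2 KO against 0.105 in WT. Its fold of 1.91 without a pseudocount became a log2 ratio of 0.12 at a pseudocount of 1, because both values lay far under 1 FPKM. The gene averaged under 1 FPKM and is not counted among the genes at or past 2-fold.

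**Figure D1:**
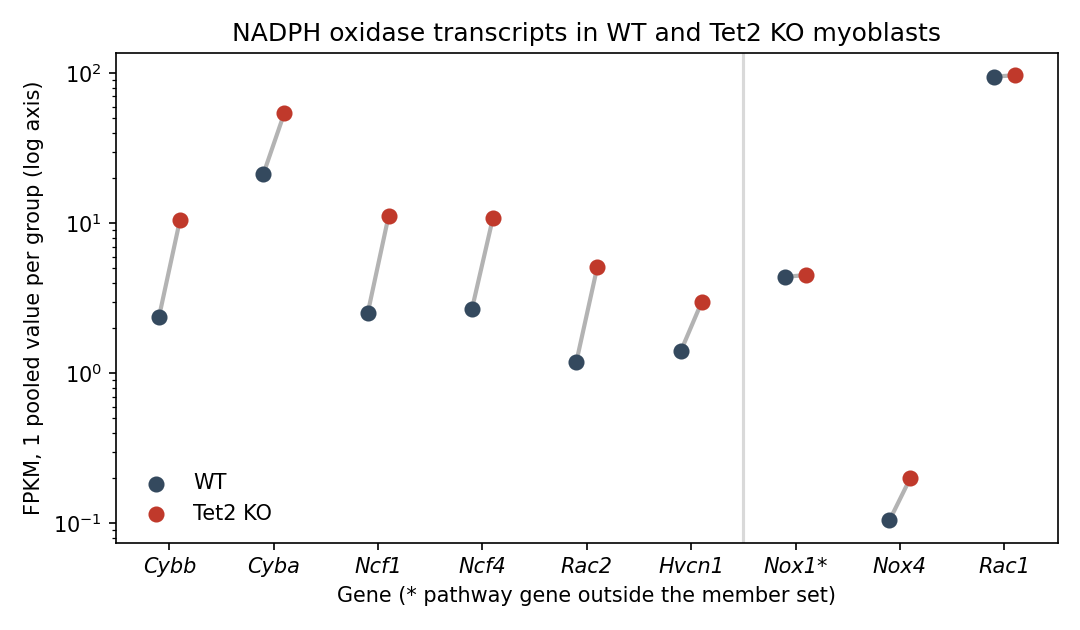
FPKM of the 8 members and of Nox1 (asterisk, outside the member set) on a log axis, with 1 dot per group, dark for WT and red for Tet2 KO. There is no error bar, since each dot is 1 pooled value. The 6 phagocyte members sit 2.12-fold to 4.43-fold higher in Tet2 KO, while the dots of Nox1 and Rac1 lie side by side and Nox4 lies lowest, at 0.2005 and 0.105.

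The order of levels was largely shared by the groups. In Tet2 KO it ran from Rac1 and Cyba through Ncf1, Ncf4, Cybb, Rac2 and Hvcn1 to Nox4. In WT the order was Rac1, Cyba, Ncf4, Ncf1, Cybb, Hvcn1, Rac2 and Nox4. Ncf1, Ncf4 and Cybb lay within 10.4 to 11.2 FPKM in Tet2 KO and within 2.38 to 2.70 FPKM in WT. Without a value per library, the places of these neighbours could not be judged against a spread.

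The depth behind these values was estimated from the table. At low levels the FPKM values, multiplied by transcript length less a fitted fragment length, fell on even steps. In Tet2 KO 87.2% of 846 low values, and in WT 87.6% of 977, lay within 0.2 of a whole number of fragments. Values without steps would give 40% for a step set beforehand. Here the step and the fragment length were fitted to these same values, so the 40% is no fair reference. In units of 1000000 fragments, the step corresponded to a depth of 56.6 in Tet2 KO and 57.3 in WT on the scale to which FPKM was normalised. On this scale Cybb rested on an estimated 2679 fragments in Tet2 KO and 619 in WT, and Ncf4 on 764 and 194. Nox4 rested on 40 and 21 fragments. Exact binomial (Clopper-Pearson) intervals at 95% on these estimated fragments ran from 4.02 to 4.80 for the fold of Cybb, from 1.80 to 2.52 for Hvcn1, from 1.10 to 3.42 for Nox4 and from 0.996 to 1.05 for Rac1. They cover counting error alone, and not the difference between animals or cultures.

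The catalytic relatives were compared next, from a list of 10 other oxidase genes and partners. Of the 3 that were expressed, none was at or past 2-fold in either direction, and the list median was 0.03. Among all expressed genes 2.08% were at least 2-fold higher and 1.21% at least 2-fold lower. The highest of the 3 was Poldip2, which encodes a protein that binds p22phox, with 70.8 FPKM in Tet2 KO against 67.3 in WT. The lowest of the 3 was BC017643, the chaperone that helps the membrane core to mature, with 14.0 FPKM in Tet2 KO against 14.1 in WT. Nox1, a relative of Cybb named here after its values were seen, had 4.52 FPKM in Tet2 KO against 4.39 in WT. Nox1 was therefore above Cybb in WT and under Cybb in Tet2 KO. Of the summed FPKM of Cybb, Nox1 and Nox4, Cybb made up 34.6% in WT and 68.9% in Tet2 KO, and Nox4 made up 1.52% and 1.32%. Of Cybb and Nox4 alone, Cybb made up 95.8% in WT and 98.1% in Tet2 KO. Nox3 and Noxa1 were listed at 0 in both groups, and Duox1, Duox2, Duoxa1, Duoxa2 and Noxo1 stayed under 1 FPKM.

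Rac relatives, regulators and effectors were mixed. Of the 14 expressed genes on a list of 16, 2 were at least 2-fold higher in Tet2 KO, against 2.08% of all expressed genes. None was at least 2-fold lower, against 1.21%, and the median log2 ratio was 0.15. The highest was Vav1, an exchange factor of blood cells that loads Rac with GTP, with 3.64 FPKM in Tet2 KO against 0.833 in WT. Dock2, another exchange factor of blood cells and the other gene past 2-fold, had 2.64 and 0.654 FPKM. Both were under 1 FPKM in WT and counted as expressed only through their Tet2 KO level. Vav2, a widely expressed relative, had 7.98 FPKM in Tet2 KO against 7.84 in WT. The lowest was Rac3, with 1.35 and 1.95 FPKM.

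At a pseudocount of 1, the expressed receptors and adaptors that switch the oxidase on had larger log2 ratios than the expressed kinases of the list. Of the 15 expressed genes on a list of 19, all had a log2 ratio above 0, against 48.8% of all expressed genes. The median of the 15 was 1.57. At least 2-fold higher were 12, against 2.08% of all expressed genes. Of these 12, Fcgr2b, Fpr2 and Syk were under 1 FPKM in WT and counted as expressed only through Tet2 KO. Fcgr2b is an inhibitory antibody receptor, so not every listed gene switches the oxidase on. The highest was Clec7a, the receptor for fungal glucans, with 10.2 FPKM in Tet2 KO against 1.45 in WT. The lowest was Prkcd, a kinase that phosphorylates p47phox, with 14.9 and 11.6 FPKM. The other kinases, named after their values were seen, had log2 ratios of 1.12 for Syk, 0.58 for Pik3cd and 0.42 for Prkcb. For Syk the order depended on the pseudocount. Without one Syk was 3.98-fold higher, above Fcer1g at 3.39-fold, Fcgr4 at 3.57-fold and also Tyrobp. Pik3cd, Prkcb and Prkcd stayed under all expressed receptors and adaptors without a pseudocount. The order depended on the minimum level too. Of the listed genes averaging under 1 FPKM, the kinase gene Pik3cg was 5.14-fold higher without a pseudocount and Pik3r5 2.75-fold. The receptors C5ar1 and Fpr1 were 2.66-fold and 4.48-fold higher. Of 6 myeloid transcription factors, 2 were at least 2-fold higher, against 2.08% of all expressed genes, and the median was 0.52. Of these 2, Cebpe was under 1 FPKM in WT. Spi1, which encodes PU.1, was the highest with 6.71 FPKM in Tet2 KO against 1.57 in WT, and Irf1 the lowest with 202 and 182 FPKM.

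Enzymes that feed the oxidase or remove its products did not share this difference. None of the 8 enzymes listed for NADPH supply was at or past 2-fold, and their median log2 ratio was 0.03. Among all expressed genes 2.08% were at least 2-fold higher and 1.21% at least 2-fold lower. The 8 included Tkt, which does not itself make NADPH, and Me2, which mainly makes NADH. The log2 ratios of the 8 ranged from -0.47 for Idh1, with 33.6 FPKM in Tet2 KO against 47.1 in WT, to 0.58 for Pgd. Pgd, an enzyme of the pentose phosphate pathway, had 72.3 and 48.1 FPKM. Of 21 enzymes that remove superoxide and peroxide, 20 were expressed. None was at or past 2-fold, against the same shares of all expressed genes, with a median of 0.10. They ranged from -0.16 for Gpx3 to 0.56 for Gpx8, 2 glutathione peroxidases. The 7 genes of the oxidant response had a median of 0.19, from -0.24 for the regulator Nfe2l2 to 0.59 for Hmox1, the haem-degrading enzyme, which had 137 FPKM in Tet2 KO against 91.3 in WT.

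Markers of blood cells were read beside the oxidase genes, since the sort had removed cells with CD45 (Ptprc) and CD11b (Itgam). In the cultured cells Ptprc had 5.67 FPKM in Tet2 KO against 1.36 in WT, and Itgam had 10.1 and 2.09 FPKM. Of 25 leukocyte, macrophage and neutrophil markers, 23 were expressed and all 23 had a log2 ratio above 0, against 48.8% of all expressed genes. Of the 23 markers, 20 were at least 2-fold higher, against 2.08% of all expressed genes. The median of the 23 was 1.60, and the oxidase median was 0.02 under it on the log2 scale. Summed over the 25 markers, the level was 2407 FPKM in Tet2 KO against 671 in WT, and none was listed at 0 in either group. Most of both sums came from S100a8, with 941 FPKM in Tet2 KO against 285 in WT, and S100a9, with 781 and 213 FPKM. The part of the blood cell markers in the oxidase values was not tested. In bulk RNA a different number of cells of a type and a different amount of RNA per cell cannot be told apart.

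By class, the 5 general leukocyte genes had a median of 1.5, from 0.96 for Laptm5 to 1.98 for Coro1a. The 10 macrophage genes had a median of 1.43, from 0.88 for Cd14 to 2.07 for Lyz2. Among the defining macrophage genes, Csf1r had 8.25 FPKM in Tet2 KO against 2.06 in WT, and Adgre1, which encodes F4/80, had 3.67 and 0.712 FPKM, so that it was expressed only through its Tet2 KO level. The 8 expressed neutrophil genes, of 10 listed, had a median of 1.79, from 1.57 for Ly6g to 2.50 for Ltf. The neutrophil receptor gene Csf3r had 0.830 FPKM in Tet2 KO against 0.334 in WT.

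Expressed markers of other cell types had lower medians than the blood cell markers. None of 8 lymphocyte genes averaged 1 FPKM. Cd3e was listed at 0 in Tet2 KO, and Cd3g and Ms4a1 in WT. Of 7 fibroblast genes, 6 were expressed and all 6 had a log2 ratio above 0, against 48.8% of all expressed genes. Their median was 0.41, from 0.11 for Thy1 to 0.95 for Dcn, which lay above Hvcn1. That median was 0.65 with no pseudocount and 0.79 among genes averaging at least 5 FPKM. Of 7 endothelial genes 2 were expressed, Pecam1 at -0.08 and Eng at -0.45. The 8 myoblast genes were abundant, from 11.0 to 372 FPKM in Tet2 KO and from 11.1 to 449 FPKM in WT. All 8 had a log2 ratio under 0, as did 5989 of the 11692 expressed genes. Their median was -0.15, from -0.32 for Musk to -0.02 for Pax7. Pax7 was near the middle, since 54.0% of expressed genes had a larger log2 ratio. Myod1 had 313 FPKM in Tet2 KO against 336 in WT, so both pools held RNA of myoblasts, beside that of the blood cell markers given above. Myog, a factor of differentiating muscle outside that list and named after its values were seen, had 268 and 554 FPKM, a log2 ratio of -1.04. The targeted gene Tet2 had 5.79 and 6.64 FPKM. That value covers all exons and does not check the deletion.

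**Figure D2:**
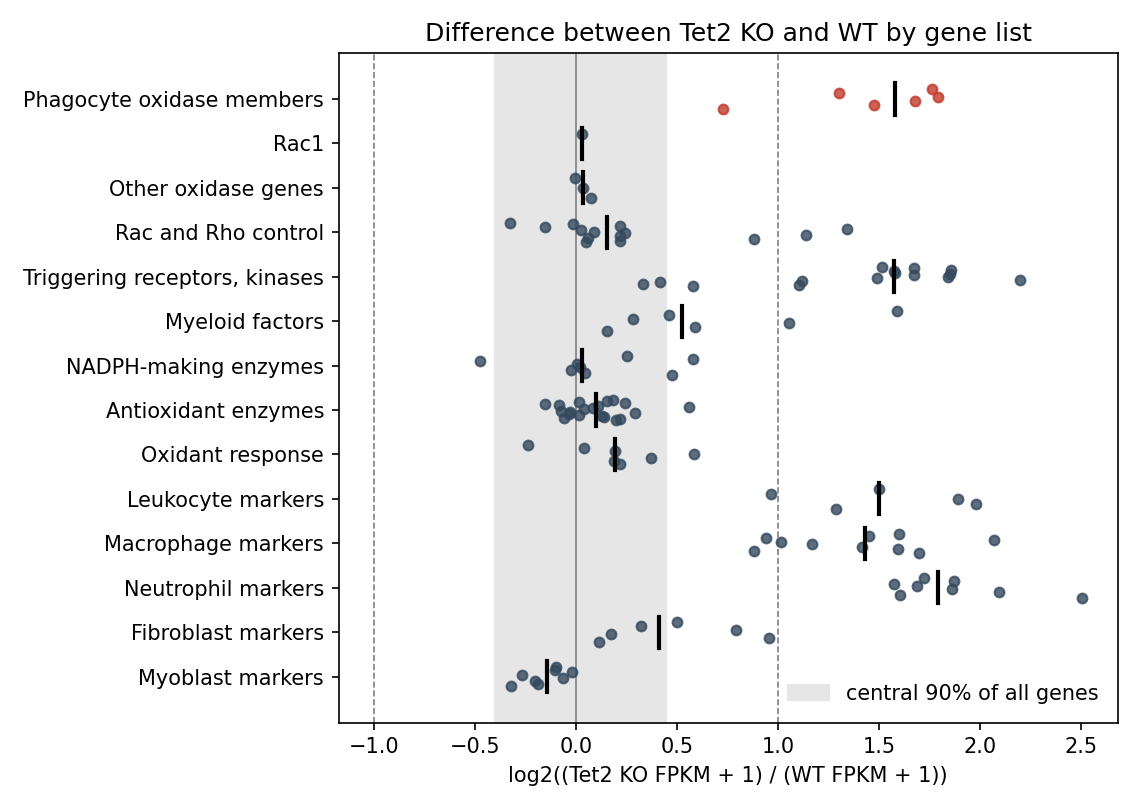
Log2 ratio of Tet2 KO over WT at a pseudocount of 1 for each expressed gene (dots), by list, with the list median as a black bar, the phagocyte members in red, 2-fold as dashed lines and the central 90% of all genes, from -0.40 to 0.44, shaded. The medians of the phagocyte members (1.58) and of the triggering receptors and kinases (1.57) lie to the right of the shaded band. So do those of the 3 blood cell marker lists (1.43 to 1.79) and, closer to the band, of the myeloid factors (0.52). Prkcb and Prkcd lie inside the band. Of the 8 enzymes listed for NADPH supply, labelled NADPH-making, Idh1 (-0.47), Pgd (0.58) and Tkt (0.47) lie outside the band. Of the antioxidant enzymes only Gpx8 (0.56) does.

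Set against Ptprc, 4 phagocyte members had nearly equal proportions in both groups and 2 were lower in Tet2 KO. This split depends on the marker chosen. Without a pseudocount Ptprc was 4.18-fold higher in Tet2 KO, while the blood cell markers ran from 2.11-fold for Cd68 and 2.15-fold for Laptm5 to 6.07-fold for Ltf. Per Cd68 or Laptm5, Cyba, at 2.54-fold, would be higher in Tet2 KO and not lower. Per Ltf all 6 phagocyte members would be lower. Cybb had 1.84 FPKM per FPKM of Ptprc in Tet2 KO and 1.75 in WT. The same ratio was 1.97 and 1.86 for Ncf1, 1.92 and 1.99 for Ncf4, and 0.902 and 0.884 for Rac2. Against Csf1r the ratio of Cybb was 1.27 and 1.16, and against Lyz2 it was 0.0413 and 0.0400. Cyba and Hvcn1 were different. Cyba had 9.53 FPKM per FPKM of Ptprc in Tet2 KO and 15.7 in WT, and Hvcn1 had 0.526 and 1.03. Rac1 had 17.1 and 70.0. For Nox4 the ratio was 0.0354 in Tet2 KO and 0.0772 in WT, at the few fragments given above. Against the neutrophil gene S100a8, Cybb had 0.0111 in Tet2 KO and 0.00833 in WT, a proportion 1.33 times as high. Against the myoblast gene Myod1 it was 0.0333 and 0.00708, which is 4.71 times as high.

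**Figure D3:**
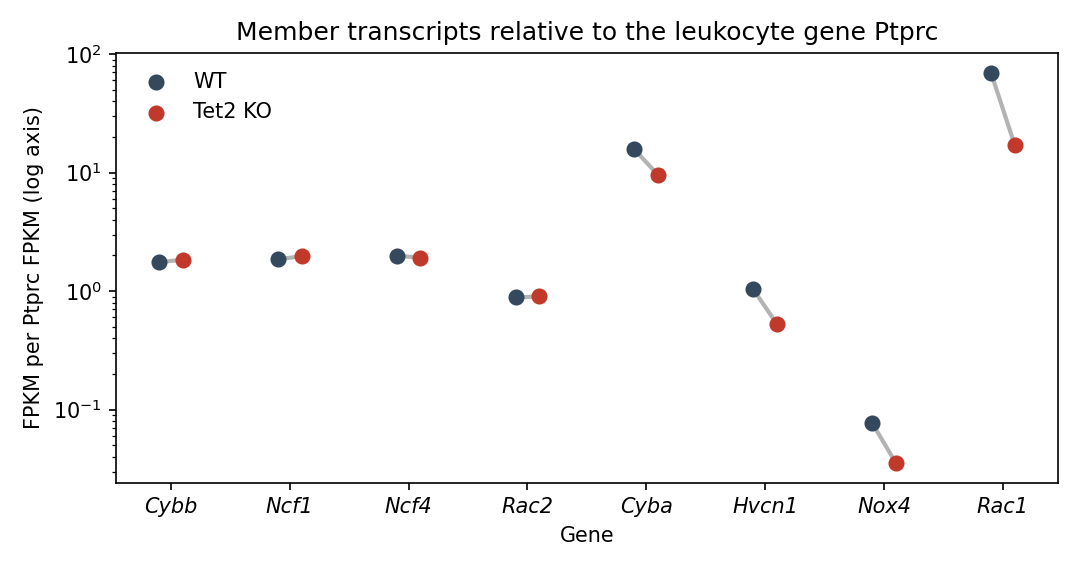
FPKM of each member divided by the FPKM of the leukocyte gene Ptprc in the same group, on a log axis, dark for WT and red for Tet2 KO, with 1 pooled value per dot and no error bar. The dots of Cybb, Ncf1, Ncf4 and Rac2 nearly coincide between groups. Cyba, Hvcn1, Nox4 and Rac1 are lower per Ptprc in Tet2 KO, Rac1 most, at 17.1 against 70.0. This pattern is for Ptprc as divisor and would differ with other blood cell markers.

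Among the 112 listed genes that were expressed and outside the member set, those whose log2 ratio lay nearest to the median of the phagocyte members were Fcer1g, Fcgr4, Ly6g, Spi1 and C1qc. Likeness was the absolute difference between a gene's log2 ratio and that median, over 2 groups, and it was 0.0020 for Fcer1g and 0.016 for C1qc. Fcer1g, the signalling chain of antibody receptors, had 16.7 FPKM in Tet2 KO against 4.91 in WT, and Fcgr4, an antibody receptor, had 11.9 and 3.33 FPKM. With 1 value in each of 2 groups, this likeness says only that the ratios were close.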

How the data were processed

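RNA of 4 libraries, 2 of WT and 2 of Tet2 KO myoblasts, was prepared with a TruSeq kit. The authors trimmed and filtered the read pairs, aligned them to mm9 with TopHat2 and deposited FPKM values from Cuffdiff, 1 per gene and group. The submitters' processing notes give the versions as 2.0.13 and 2.2.1. The gene annotation is not given in the sources used here. The deposited table also held the authors' fold changes, test statistics, p-values and q-values, none of which was used.

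Symbols were matched to the table. Of 150 listed genes 1 was found under a newer symbol, Adgre1. Log2 ratios used a pseudocount of 1 FPKM, which understates low genes, and list medians used genes averaging at least 1 FPKM over both groups, here called expressed. The members and lists were chosen with earlier results of these data known, and 1 further listed oxidase gene is not reported here and was left out of the list counts. Genes named were the members, Tet2, the extreme members of each list, defining markers and the 5 nearest ratios, and others are said to be chosen later or serve as comparisons. Starts had 1 added, since the table counts from 0. Exons, overlaps and the bounds of Hvcn1 came from GENCODE vM1. Copies were searched with BLAST+ 2.17.0 at 95% identity over at least 50 bases. The step search and the ratios were tested on simulated data. Alternatives were pseudocounts, filters, TPM, median centring, other folds and leaving out single members. Values were computed in Python 3.11.15 with pandas 2.3.3 and numpy 2.4.6, intervals with scipy 1.17.1, and plots drawn with matplotlib 3.10.9.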

Additional observations from a re-analysis of the deposited data

How the results depend on the processing

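No paired analysis was possible because the table holds 1 pooled value per group, and for the same reason no library could be left out. The median of the phagocyte members ran from 1.46 to 2.05 over 13 alternatives, and its distance above Nox4 and Rac1 from 1.40 to 1.69. With all 6 members kept, 5 or 6 were at least 2-fold higher under the pseudocounts, no filter, TPM and median centring. The share of expressed genes was 2.08% at a pseudocount of 1 and 2.95% with none. The count was 4 or 5 with a single member left out, and 4 at a minimum of 5 FPKM, which drops Rac2 and Hvcn1. At a pseudocount of 1, a fold of 1.5 gave 6, against 3.72%, and a fold of 4 gave 0, against 0.205%. With no pseudocount all 6 were at least 2-fold higher. Chosen after seeing the data, 4 were then at least 4-fold higher, against 0.992%. The difference between the oxidase and the blood cell markers was near 0 and ran from -0.12 to 0.11, with either sign. The ratio of Nox4 depended most on the pseudocount, from 0.12 to 0.94. The endothelial median turned from -0.27 to 0.012 with no filter, which added 5 genes under 1 FPKM, and the fibroblast median of 0.41 was 0.65 with no pseudocount and 0.79 at a minimum of 5 FPKM. The sign of every member's ratio was kept under the pseudocounts, TPM and median centring. Fragments were estimated rather than counted, which limits Nox4 most.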
